A study of Mus musculus with 8 samples.

Results

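The 39 genes described here are immediate early, AP-1 and NF-kB response genes, chosen by name from 7 groups of known function, out of 55335 genes in the count table. These genes were picked with earlier results of these data known. They comprise 7 genes of the AP-1 family (*Fos*, *Fosb*, *Fosl2*, *Jun*, *Junb*, *Jund*, *Atf3*), 7 EGR, KLF and MYC transcription factors, 6 IER and growth arrest or stress genes, 6 dual-specificity phosphatases (DUSPs), 4 NF-kB subunits, 4 NF-kB feedback inhibitors and atypical IkB proteins, and 5 genes of mRNA decay and the BTG family. All 39 were found and passed the filter on low counts, the lowest count of a member in any sample being 75.

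Immediate early genes are transcribed within minutes of T cell receptor engagement, without new protein synthesis, when MAP kinases act on serum response factor and its partners. AP-1 is a dimer of FOS and JUN family proteins, and NF-kB is a dimer of REL family proteins that IkB proteins hold in the cytoplasm until they are degraded. Both pathways switch on their own brakes, among them DUSPs, IkB alpha and A20, and in tumor-infiltrating CD8+ T cells they stand between antigen recognition and effector or dysfunctional programs.

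RNA was sequenced from tumor-infiltrating lymphocytes (TILs) of MC38 tumors, a mouse colon carcinoma line, sorted as CD8+CD44+PD-1+ cells in order to compare gene expression with and without LSD1, the histone demethylase encoded by *Kdm1a*. The 4 wildtype (WT) samples came from Lsd1f/f C57BL/6 mice, whose floxed alleles are intact, and the 4 LSD1-deficient (KO) samples from Cd4-Cre+Lsd1f/f mice, in which Cre is expressed from the Cd4 promoter and deletes Lsd1 during T cell development in the thymus, so that both CD4+ and CD8+ T cells are targeted. A WT sample pooled 2 mice whereas a KO sample was a single animal, so pooling and genotype cannot be told apart. Tumors were taken on day 18 by the protocol and on day 14 by the design text, the gate was CD45.2+TCRbeta+CD8+CD44+PD-1+ live cells, and 10000 to 20000 cells were lysed per sample.

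Libraries held 11657807 to 30295406 counts, with WT samples numbered S1 to S4 and KO samples S5 to S8. Levels are given as CPM, which are counts brought to the same library size by edgeR's TMM factors. The quasi-likelihood test of edgeR compared the genotypes over 15378 genes, and a gene was called at the study's thresholds, more than 1.5-fold with an adjusted p (Benjamini-Hochberg) under 0.01. Gene positions are those of GENCODE M21 on GRCm38. *Kdm1a*, the targeted gene, was at 44.6, 47.2, 42.7 and 44.9 CPM in WT and 25.2, 30.6, 32.05 and 34.8 CPM in KO, in the order of the samples (log2 fold change -0.55, SE 0.14, edgeR adjusted p = 0.0163). The groups did not overlap, and the counts cover the whole gene, including any exons that the deletion leaves. Of 8 CD8 T cell markers (*Cd3d*, *Cd3e*, *Cd3g*, *Trac*, *Cd8a*, *Cd8b1*, *Pdcd1*, *Cd44*), the summed level was 3553 to 4177 CPM in WT and 3217 to 4012 CPM in KO, and the sums overlapped. Within that list, *Cd44*, a marker of the sort gate, was called higher in KO (log2 fold change 0.86, edgeR adjusted p = 0.000107), and *Cd8b1* and *Cd3g* were lower without overlap (-0.39 and -0.36, edgeR adjusted p = 0.0158 and 0.0505). The markers of tumor or epithelial cells summed to at most 1.34 CPM. Sums that did not overlap were 2.56 to 7.68 CPM in WT and 8.6 to 28.7 CPM in KO for CD4 T cell and Treg markers, 0 to 1.32 and 2.32 to 6.5 CPM for NK cell markers, and 21.4 to 31.4 and 58.03 to 78.6 CPM for fibroblast and endothelial markers. Most of the NK cell sum was *Klrb1c*, with means of 0.459 CPM in WT and 3.86 CPM in KO. Nearly all of the fibroblast and endothelial sum was *Pecam1*, the 1 called (22.9 and 63.65 CPM, log2 fold change 1.48). The other genes of that list averaged at most 1.18 CPM in either group. Of 17 macrophage and other myeloid markers, 16 were tested, 12 were called lower in KO and 14 did not overlap between the groups. Their sum was 449.8 to 1338 CPM in WT, highest in S3, and 221.7 to 310.8 CPM in KO, and none was at 0 in all samples. The summed level of 12 heat shock genes was 12020 to 13780 CPM in WT and 10010 to 11980 CPM in KO.

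Of the 39 members, 6 were called higher in KO (*Klf4*, *Egr2*, *Egr3*, *Dusp4*, *Dusp10* and *Nfkbid*), which is 15.4% against 2.91% of all genes tested. *Myc* was the 1 member called lower, where 1.99% of all genes were called lower. At an adjusted p under 0.05 with no fold threshold, 10 members were higher, adding *Fosb*, *Klf6*, *Rel* and *Nfkbiz*, and 3 were lower, adding *Dusp1* and *Ppp1r15a*. These are 25.6% and 7.69% of the members, against 6.31% and 4.98% of all genes. In 11 members the KO samples all exceeded the WT samples (28.2%, against 8.99% of all genes), namely these 10 and *Dusp5*, and in *Myc* and *Dusp1* they all lay below (5.13%, against 8.28%). Such shares describe a list chosen with earlier results of these data known and are not a test. The members were also more abundant than most genes tested, and shares among genes of like level were not computed. The list did not move as a whole, since 24 members had a positive and 15 a negative log2 fold change, with a median of 0.06 against -0.01 over all genes tested and a range of -1.11 to 1.25. Without S7 the number called higher was 3 and the number called lower 2, and without S8 the number called lower was 4. In bulk samples, a change in the share of cells that express a gene and a change in RNA per cell cannot be told apart. Some of the marker lists and the heat shock genes given above also differed between the genotypes, and their part in the differences of the members was not tested.

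**Figure D1:**
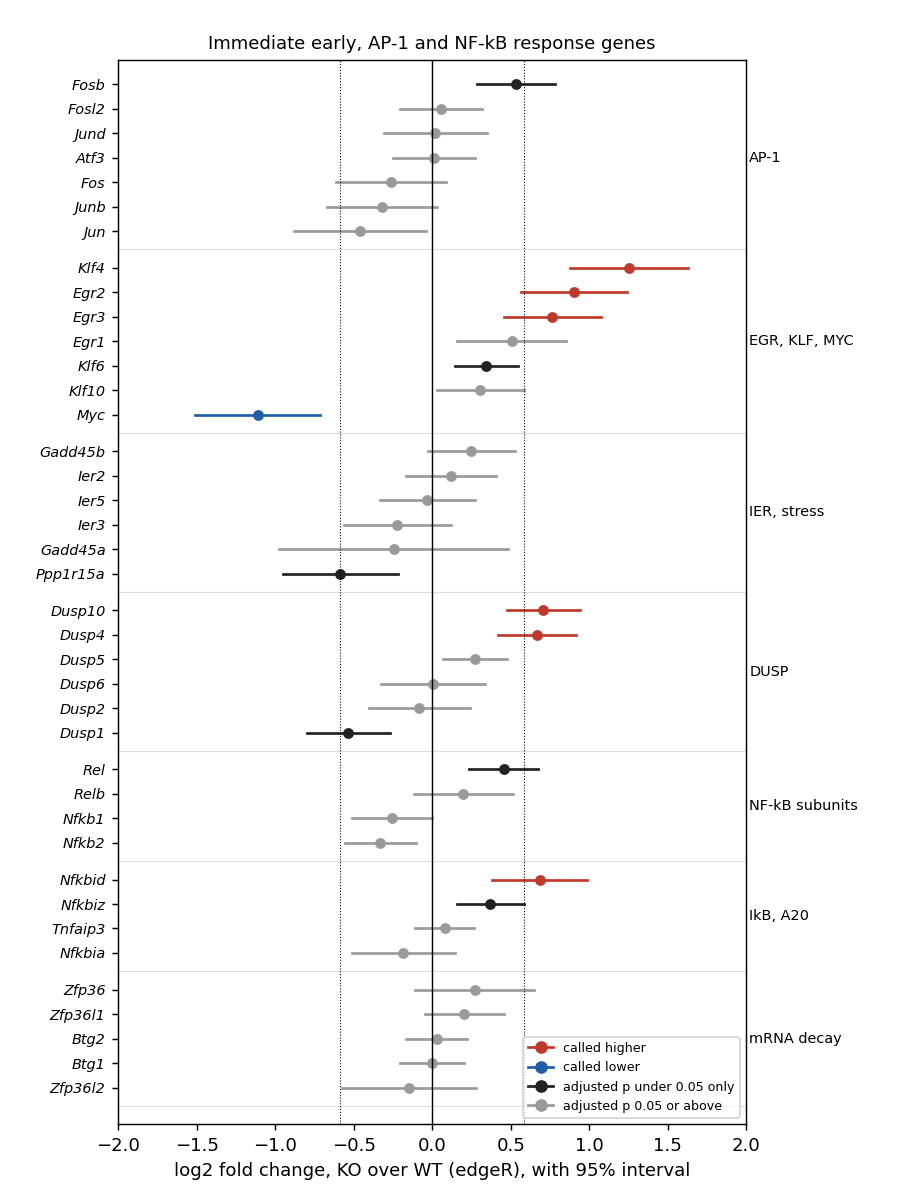
Log2 fold change of KO over WT for the 39 genes (x axis) by functional group, from edgeR, with 95% intervals as bars. Dotted lines mark a fold change of 1.5 in either direction. *Klf4* stands highest at 1.25 and *Myc* lowest at -1.11, and both directions occur within every group.

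The members are abundant in these cells. Per exon length, 29 of the 39 were among the top 10% and 37 among the top 25% of 15364 tested genes by mean RPKM (CPM divided by exon length in kilobases) over the 8 samples, and 0 were below the median. *Junb*, an AP-1 subunit, had the highest mean RPKM (219), followed by *Tnfaip3* (214), which encodes the ubiquitin editing enzyme A20, *Klf6* (163), *Btg1* (154) and *Btg2* (153). *Gadd45a*, a stress-induced growth arrest gene, had the lowest at 5.64.

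**Figure D2:**
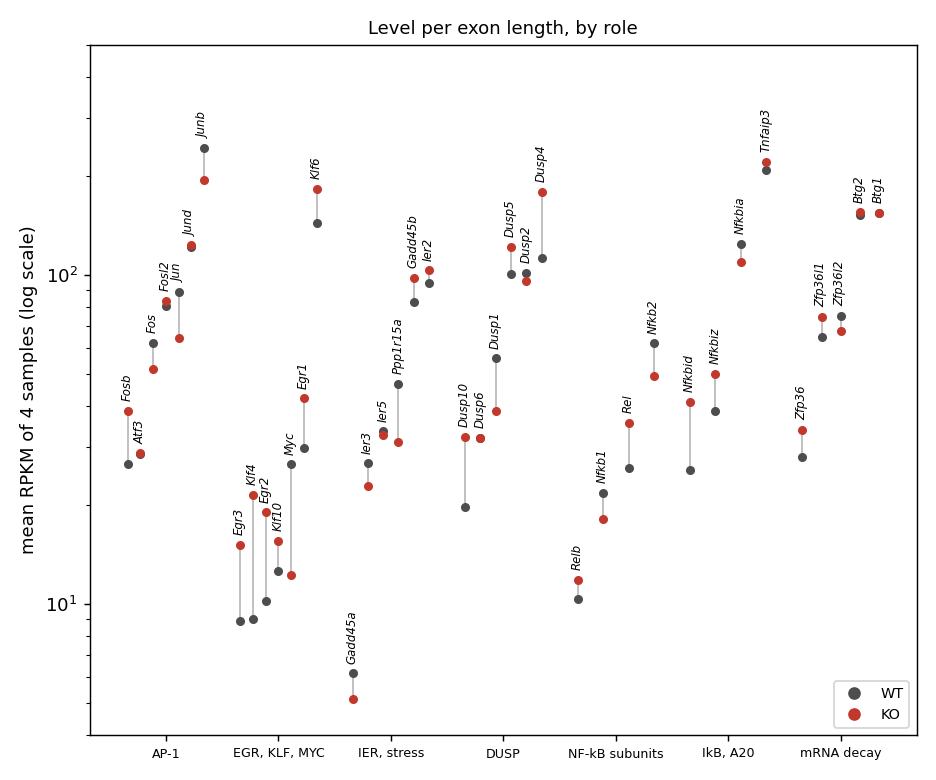
Mean RPKM of the 4 WT (grey) and 4 KO (red) samples for each gene, on a log scale, by functional group. The genes span 5.64 RPKM for *Gadd45a* to 219 RPKM for *Junb* as means over all samples, and the gap between the points of one gene is its difference between genotypes.

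The promoters of the called members that hold one of the motifs searched are shown first, since motifs of the factors upstream of this response can be looked for there. Sequences came from RefSeq on GRCm38.p6, which listed windows of 300 bases around a transcription start, 250 before and 50 after, for 29 of the 39 members. Of the called members, *Dusp4*, *Egr3* and *Myc* had no window and were not searched, and the window of *Dusp10* held no match. Capitals mark a match on either strand, read 5′ to 3′ on the gene's strand. *Egr2* is on the plus strand of chromosome 10, where 2 CArG boxes, the binding motif of serum response factor, each lie 72 bases before a listed start. They are shown with 10 bases on each side, at chr10:67537484-67537513 (first) and chr10:67537787-67537816 (second), and GENCODE M21 has no exon in either stretch.
Egr2 first CArG box: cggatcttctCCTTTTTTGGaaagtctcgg
Egr2 second CArG box: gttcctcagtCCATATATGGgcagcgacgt
*Klf4* is on the minus strand of chromosome 4. The 250 bases before its start, chr4:55532476-55532725, hold 2 EGR motifs (GCGNGGGCG), which begin 211 and 194 bases before the start.
Klf4 upstream: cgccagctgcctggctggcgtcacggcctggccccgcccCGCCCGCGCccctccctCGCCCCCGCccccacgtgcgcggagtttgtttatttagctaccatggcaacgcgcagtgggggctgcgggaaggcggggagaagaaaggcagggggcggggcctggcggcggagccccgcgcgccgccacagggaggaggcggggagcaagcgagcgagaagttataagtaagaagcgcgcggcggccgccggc
*Nfkbid* is on the plus strand of chromosome 7. One of its starts follows chr7:30422156-30422405, which lies inside an intron of a longer transcript and holds 2 kB motifs that begin 226 and 181 bases before the start, and a cyclic AMP response element (CRE, TGACGTCA) that begins 51 bases before it.
Nfkbid upstream: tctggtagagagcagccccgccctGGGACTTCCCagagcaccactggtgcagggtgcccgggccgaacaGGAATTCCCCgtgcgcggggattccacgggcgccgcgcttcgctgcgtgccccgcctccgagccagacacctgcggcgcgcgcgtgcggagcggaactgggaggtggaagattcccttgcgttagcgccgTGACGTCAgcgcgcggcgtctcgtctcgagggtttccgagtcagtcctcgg

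Over the 29 members with a window, both strands searched and any window of a gene counted, the kB motif was found in 9 (*Fos*, *Fosb*, *Fosl2*, *Ier3*, *Nfkb2*, *Nfkbia*, *Nfkbid*, *Rel* and *Tnfaip3*) against 5.14% of 27018 genes. The EGR motif was found in 8 (*Btg2*, *Dusp2*, *Fosb*, *Fosl2*, *Gadd45b*, *Klf4*, *Nfkb2* and *Zfp36*) against 6.27%. The CRE was found in 4 (*Btg2*, *Dusp1*, *Nfkbid* and *Ppp1r15a*) against 2.03%, and the CArG box in 3 (*Dusp5*, *Egr2* and *Zfp36*) against 1.81%. The AP-1 motif (TGANTCA) was found in 3 (*Nfkb2*, *Tnfaip3* and *Zfp36l1*) against 8.98%, and the TCF motif (CTTTGAT), searched because the study turns on TCF1, in 0 against 4.29%. The members were chosen by name as immediate early, AP-1 and NF-kB response genes, so shares above those of all genes are no test. Promoters were not matched for GC content. A match is a run of letters and was not measured as a bound site here. Of the 9 members with a kB motif, *Fosb*, *Rel* and *Nfkbid* were higher in KO at an adjusted p under 0.05. Of all 39 members 25.6% were, and of all genes tested 6.31%. The other 6 with a kB motif did not pass, with log2 fold changes of -0.26 (*Fos*), 0.06 (*Fosl2*), -0.22 (*Ier3*), -0.33 (*Nfkb2*), -0.19 (*Nfkbia*) and 0.08 (*Tnfaip3*). Of the 4 with a CRE, *Nfkbid* was higher, *Dusp1* and *Ppp1r15a* were lower, and *Btg2* did not pass (0.03).

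Among the 7 AP-1 genes, edgeR called 0 (DESeq2 and limma-voom also 0), 2 had an unadjusted p under 0.05 and 1 passed an adjusted p of 0.05. Counts at an unadjusted p, here and below, have no share of all genes beside them and cannot be judged against one. Their median log2 fold change was 0.01. *Fosb*, a FOS family partner of JUN proteins, was at 160.3, 150.1, 153 and 203 CPM in WT and 209.5, 229, 252 and 273 CPM in KO. Every KO sample lay above every WT sample, by a narrow margin between S4 and S5. The log2 fold change was 0.53 (SE 0.12, edgeR adjusted p = 0.00594), under the fold threshold, and it passed both thresholds without S4 (0.64) or without S5 (0.60). Over 17 other tests, scalings, filters and left-out samples, the log2 fold change of *Fosb* ranged from 0.47 to 0.64. *Fos* itself, the founding member of the family, was at 124, 130.1, 176 and 155 CPM in WT and 78.4, 123, 132 and 154 CPM in KO. The groups overlapped and the log2 fold change was -0.26 (edgeR adjusted p = 0.367), so that *Fos* and *Fosb* had fold changes of opposite sign. Within each sample, the ratio of *Fosb* to *Fos* in CPM, which does not depend on scaling, was 0.872 to 1.31 in WT and 1.78 to 2.67 in KO. This ratio and those below were chosen after their values were seen and were given no test.

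*Junb*, the most abundant member per length, was at 456, 756, 496 and 527 CPM in WT and 399, 363, 406 and 622 CPM in KO. It was highest in S2 among WT and in S8 among KO, the groups overlapped, and the log2 fold change was -0.32 (95% interval -0.67 to 0.03). *Jun*, the most potent transactivator among the JUN proteins, was at 219, 375, 254 and 281 CPM in WT and 141, 169, 203 and 309 CPM in KO, with the same 2 samples highest in their groups. Its log2 fold change of -0.46 missed the threshold (SE 0.20, edgeR adjusted p = 0.163), and without S8 it was -0.72 and called lower (edgeR adjusted p = 0.00788). At the other end of the 17 alternatives tried, it was -0.29. *Jund* (0.02, 95% interval -0.31 to 0.35), *Fosl2* (0.06, -0.20 to 0.32) and *Atf3* (0.01, -0.25 to 0.27), which encodes a stress-induced bZIP factor, had log2 fold changes near 0, with intervals that stayed short of the *Fosb* change of 0.53 in either direction.

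The EGR, KLF and MYC group held the largest differences, with 3 of 7 called higher, 1 called lower and a median log2 fold change of 0.51. *Klf4* (ENSMUSG00000003032.8, chr4:55527143-55532466), a zinc finger factor that restrains T cell proliferation, was at 27.3, 30.2, 22.9 and 29.3 CPM in S1 to S4 and 47.5, 53.4, 81.9 and 78.5 CPM in S5 to S8. The groups did not overlap, with S7 and S8 well above S5 and S6. The mean rose from 27.4 ± 3.28 to 65.3 ± 17.4 CPM (SD, n = 4 per group), a 2.38-fold change (log2 1.25, SE 0.18, edgeR adjusted p = 0.000153).

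*Egr2* (ENSMUSG00000037868.15, chr10:67535475-67542188), a zinc finger factor induced through NFAT and known for limiting T cell activation, was at 29.1, 37.2, 31.2 and 40.7 CPM in WT and 81.9, 66.3, 50.3 and 59.7 CPM in KO. The groups did not overlap, and S5, the KO sample in which most other members were lowest, had the highest level. The difference was 1.87-fold (log2 0.90, SE 0.16, edgeR adjusted p = 0.00128). *Egr3* (ENSMUSG00000033730.4, chr14:70077203-70082614), its close paralog, was at 32.6, 47.7, 37.6 and 38.3 CPM in WT and 56.3, 75.4, 73.7 and 60.6 CPM in KO, again without overlap. The difference was 1.70-fold (log2 0.77, SE 0.15, edgeR adjusted p = 0.00221). The call on *Egr3* was lost without S6 (0.70, edgeR adjusted p = 0.0102) and without S7 (0.71, edgeR adjusted p = 0.011).

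*Egr1*, the family member that responds most broadly to growth signals, was at 143, 147, 149 and 92.8 CPM in WT and 131, 190.2, 216 and 219 CPM in KO. S4 was lowest of all and S5 lay inside the WT range. The log2 fold change of 0.51 missed both thresholds (SE 0.16, edgeR adjusted p = 0.0569), and without S5 it was 0.65 and called higher (edgeR adjusted p = 0.00751). Its lowest value over the 17 alternatives tried was 0.37. *Klf6*, an abundant zinc finger factor, was at 613, 618, 621 and 670.4 CPM in WT and 682, 779.6, 867 and 875 CPM in KO, a non-overlapping but small difference of 1.27-fold (log2 0.34, SE 0.09, edgeR adjusted p = 0.0259). *Klf10*, a TGF-beta-induced factor, had a log2 fold change of 0.31 and overlapping groups (edgeR adjusted p = 0.154).

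*Myc* (ENSMUSG00000022346.15, chr15:61985391-61990374), which drives metabolic growth and proliferation in activated T cells, went the other way, at 69.9, 72.2, 59.5 and 86.8 CPM in S1 to S4 and 25.4, 42.5, 23.6 and 41.4 CPM in S5 to S8. The highest KO sample, S6, was below the lowest WT sample, S3. The mean fell from 72.1 ± 11.2 to 33.2 ± 10.1 CPM (SD, n = 4 per group), 2.16-fold lower (log2 -1.11, SE 0.19, edgeR adjusted p = 0.00084). *Myc* was called lower under each of the other tests, scalings and filters tried and without each sample, with log2 fold changes of -1.25 to -0.98. The ratio of *Egr2* to *Myc* within a sample was 0.416 to 0.525 in WT and 1.44 to 3.22 in KO.

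**Figure D3:**
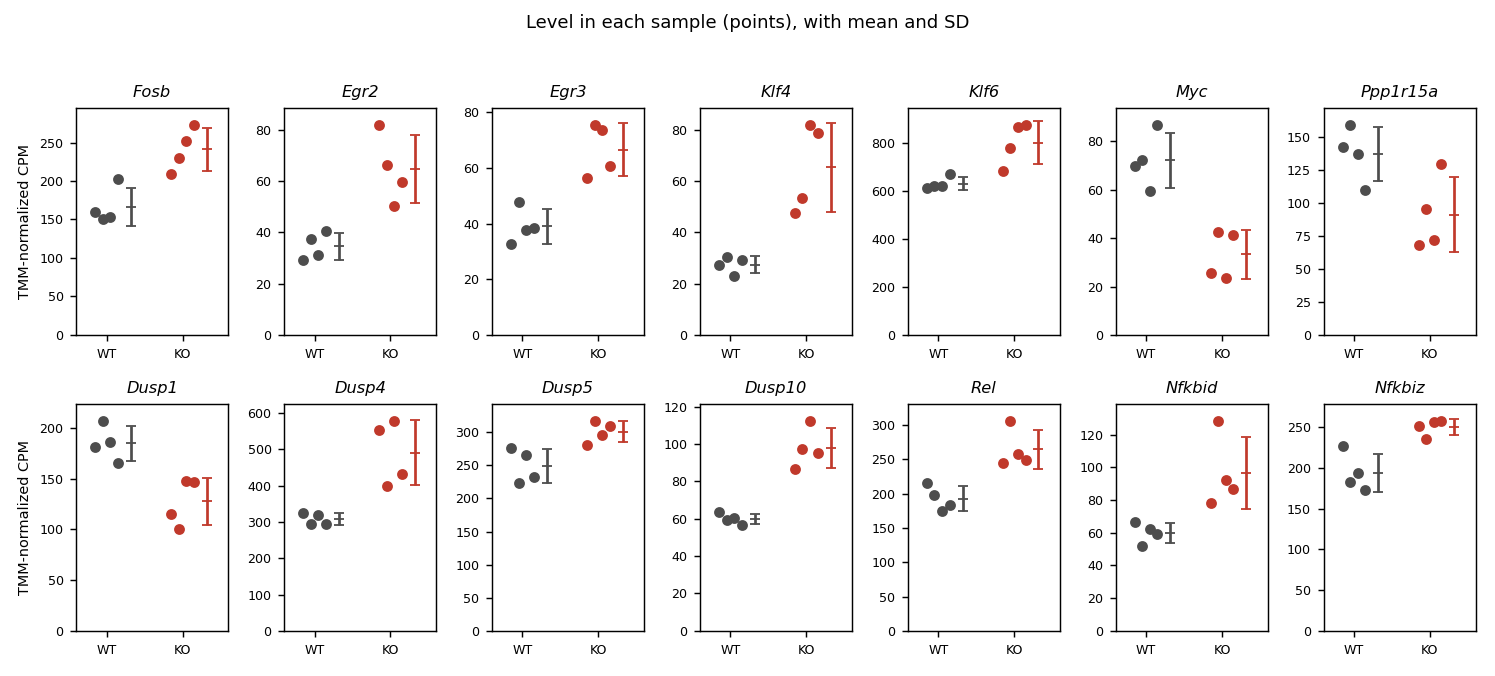
TMM-normalized CPM (y axes from 0) of the members with an adjusted p under 0.05 or with groups that do not overlap, for each WT (grey) and KO (red) sample as a point in sample order, with the mean and SD of 4 samples beside the points. *Myc* and *Dusp1* are lower throughout KO, *Ppp1r15a* overlaps in S4 and S8, and the other 11 genes are higher in every KO sample.

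Of the 6 IER and growth arrest or stress genes, edgeR, DESeq2 and limma-voom each called 0, and 1 was lower at an unadjusted and at an adjusted p of 0.05 in edgeR, with a median log2 fold change of -0.13. That gene was *Ppp1r15a*, which encodes GADD34, the phosphatase subunit that restores translation after stress. It was at 142, 159, 137 and 109.9 CPM in WT and 68.4, 95.1, 71.6 and 129.5 CPM in KO, where S8 lay inside the WT range and the other KO samples below it. The log2 fold change was -0.58 (SE 0.17, edgeR adjusted p = 0.0362), and without S8 it was -0.80 and called (edgeR adjusted p = 0.00176). Its weakest value over the 17 alternatives tried was -0.47. The transcription cofactors *Ier2* (0.12) and *Ier5* (-0.03), the survival gene *Ier3* (-0.22) and the stress-induced genes *Gadd45a* (-0.24) and *Gadd45b* (0.25) had log2 fold changes that did not pass, with edgeR adjusted p from 0.264 to 0.931. *Gadd45a* was the least certain of the members, with an SE of 0.34 and a 95% interval of -0.97 to 0.48.

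Among the heat shock genes, a separate stress response, *Dnajb1*, a co-chaperone, was at 544, 605, 554 and 526 CPM in WT and 309, 302, 375 and 403 CPM in KO (log2 fold change -0.68, SE 0.11, edgeR adjusted p = 0.000378). Of the 12 on the list, 2 were called lower and 3 were lower at an adjusted p of 0.05, where 1.99% and 4.98% of all genes tested were. The other called gene was *Hspb1* (log2 fold change -3.35), with means of 4.83 CPM in WT and 0.449 CPM in KO. The list held 9 negative and 3 positive log2 fold changes. *Ppp1r15a* and *Dusp1* were also lower in KO, and whether these differences belong together was not tested.

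The 6 DUSPs, which dephosphorylate MAP kinases, were split, with 2 called higher and 1 lower at an adjusted p of 0.05. *Dusp4* (ENSMUSG00000031530.6, chr8:34807297-34819894), a nuclear phosphatase of ERK and JNK, was at 325, 295, 319 and 295 CPM in WT and 554, 398, 579 and 431 CPM in KO. The WT samples lay close together and all KO samples were above them, S5 and S7 most. The mean rose from 309 ± 15.9 to 490.3 ± 89.1 CPM (SD, n = 4 per group; log2 fold change 0.67, SE 0.12, edgeR adjusted p = 0.00108), and without S7 the log2 fold change of 0.58 was just under the fold threshold. *Dusp10* (ENSMUSG00000039384.8, chr1:184013302-184075636), which acts on p38 and JNK, was at 63.4, 59.2, 60.5 and 56.7 CPM in WT and 86.8, 97.1, 112 and 95.3 CPM in KO. The groups were far apart relative to their spread, 59.9 ± 2.8 against 97.9 ± 10.7 CPM (SD, n = 4 per group), a 1.63-fold difference (log2 0.71, SE 0.11, edgeR adjusted p = 0.000423).

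*Dusp1*, the classical immediate early phosphatase of p38 and JNK, was at 181, 207, 186 and 165 CPM in WT and 115, 101, 148 and 146 CPM in KO. The KO samples all lay under the WT samples. The log2 fold change of -0.53 (SE 0.13, edgeR adjusted p = 0.01005) missed the call, which it passed without S7 (-0.61, edgeR adjusted p = 0.00982) and without S8 (-0.61, edgeR adjusted p = 0.00671). At the other end of the 17 alternatives tried, it was -0.44. *Ergic1*, a gene on the opposite strand whose exons overlap those of *Dusp1* by 11 bases, held 31.4% as many counts as *Dusp1*. The ratio of *Dusp10* to *Dusp1* within a sample was 0.286 to 0.351 in WT and 0.652 to 0.964 in KO.

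*Dusp5*, a nuclear phosphatase of ERK, was at 276, 223, 265 and 232 CPM in WT and 280.5, 317, 296 and 309 CPM in KO. The lowest KO sample, S5, was barely above the highest WT sample, S1, and the log2 fold change was 0.27 (SE 0.10, edgeR adjusted p = 0.0826). *Dusp6*, a cytoplasmic ERK phosphatase, and *Dusp2*, an activation-induced nuclear one, had log2 fold changes of 0.004 (95% interval -0.33 to 0.33) and -0.08 (-0.41 to 0.24), and their groups overlapped. The 3 phosphatases that were higher without overlap therefore stood beside 1 that was lower and 2 whose groups overlapped.

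Of the 4 NF-kB subunits, edgeR, DESeq2 and limma-voom each called 0, 3 had an unadjusted p under 0.05 in edgeR, and *Rel* was the 1 that passed an adjusted p of 0.05. *Rel* encodes c-Rel, the transactivating subunit that T cells induce after stimulation, and was at 215, 198, 175 and 183 CPM in WT and 245, 306, 258 and 248.9 CPM in KO. The groups did not overlap, and the log2 fold change was 0.45 (SE 0.10, edgeR adjusted p = 0.00813). The genes of the precursor subunits had negative log2 fold changes that missed the threshold, -0.26 for *Nfkb1* (p105 and p50, edgeR adjusted p = 0.197) and -0.33 for *Nfkb2* (p100 and p52, edgeR adjusted p = 0.055).

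*Nfkb2* was at 280.2, 307, 244 and 304 CPM in WT and 248, 243, 194 and 216 CPM in KO, and the groups overlapped at S3 and S5. Annotated genes inside or across them held 16.1% as many counts as *Nfkb1* (*Gm43430*, same strand) and 12.4% as many as *Nfkb2* (*AC114539.1*, opposite strand). *Relb*, the partner of p52 in the noncanonical pathway, had a log2 fold change of 0.20 (95% interval -0.12 to 0.51). The ratio of *Rel* to *Nfkb1* within a sample was 0.67 to 0.847 in WT and 1.01 to 1.44 in KO.

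Among the 4 inhibitors and atypical IkB genes, the 2 atypical nuclear IkB proteins were the ones that were higher. *Nfkbid* (ENSMUSG00000036931.15, chr7:30421732-30428746), which encodes IkBNS, a nuclear cofactor induced by T cell receptor signals, was at 66.5, 52.1, 62.1 and 59.4 CPM in WT and 78.2, 128, 92.5 and 86.8 CPM in KO. The KO samples all exceeded the WT samples, and S6 stood highest. The log2 fold change was 0.68 (SE 0.14, edgeR adjusted p = 0.00474). Of the 6 higher calls it was lost under the most of the alternatives tried: when S2, S3, S4, S6 or S7 was left out, with log2 fold changes of 0.52 to 0.70 and edgeR adjusted p from 0.012 to 0.0267, and with library size alone as scaling (edgeR adjusted p = 0.0105).

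*Nfkbiz*, encoding IkB zeta, a coactivator of secondary NF-kB targets, was at 227, 183, 194 and 172 CPM in WT and 252, 236, 256 and 258 CPM in KO. The KO samples lay close together above all WT samples, with a log2 fold change of 0.37 (SE 0.10, edgeR adjusted p = 0.0241). The classical feedback genes did not follow. *Nfkbia*, encoding IkB alpha, was at 199, 265, 172 and 162 CPM in WT and 128, 202, 184 and 188 CPM in KO, with overlapping groups and a log2 fold change of -0.19 (95% interval -0.51 to 0.14). *Tnfaip3* was at 1699, 1415, 1471 and 1442 CPM in WT and 1507, 1570, 1755 and 1537 CPM in KO, also overlapping (log2 fold change 0.08, 95% interval -0.11 to 0.27). The ratio of *Nfkbid* to *Nfkbia* within a sample was 0.197 to 0.367 in WT and 0.461 to 0.634 in KO.

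Of the 5 genes of mRNA decay and the BTG family, edgeR, DESeq2 and limma-voom each called 0, 0 had an unadjusted p under 0.05 in edgeR, and the groups overlapped in all 5. Their median log2 fold change was 0.03. *Zfp36* (0.27), *Zfp36l1* (0.21) and *Zfp36l2* (-0.15) encode proteins that bind AU-rich elements and speed the decay of cytokine mRNAs. *Btg1*, which maintains T cell quiescence together with *Btg2*, was at 750.2, 894, 843 and 761 CPM in WT and 735, 757, 911 and 843 CPM in KO. *Btg2* was at 377, 407, 447 and 436 CPM in WT and 414, 416, 465 and 404 CPM in KO. The groups of both were interleaved, and the 95% intervals of their log2 fold changes, -0.20 to 0.20 and -0.17 to 0.22, were among the narrowest of the members.

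Samples of one genotype also differed from each other across many members. S5 was the lowest KO sample in 24 of the 39 members, against 29.2% of all genes tested, and S8 the highest in 18, against 23.2%. In WT, S2 was the highest in 16, against 22%, and S4 the lowest in 16, against 25.7%. The mean log2 CPM of the members was 7.195, 7.28, 7.15 and 7.08 in the WT samples in order, and in the KO samples 7.09, 7.25, 7.30 and 7.46. It overlapped between the genotypes, with S8 highest and S4 lowest. The 9 members highest in both S2 and S8 were *Jun*, *Junb*, *Jund*, *Ier2*, *Ier3*, *Ier5*, *Ppp1r15a*, *Dusp2* and *Zfp36l2*. S2 and S8 had the most counts of their groups, and the median GC content of these 9 genes was 55.7%, against 49% over all genes tested. With an offset for GC content, chosen after seeing the data, S8 was highest in 11 members, S5 lowest in 21, S2 highest in 15 and S4 lowest in 15.

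**Figure D4:**
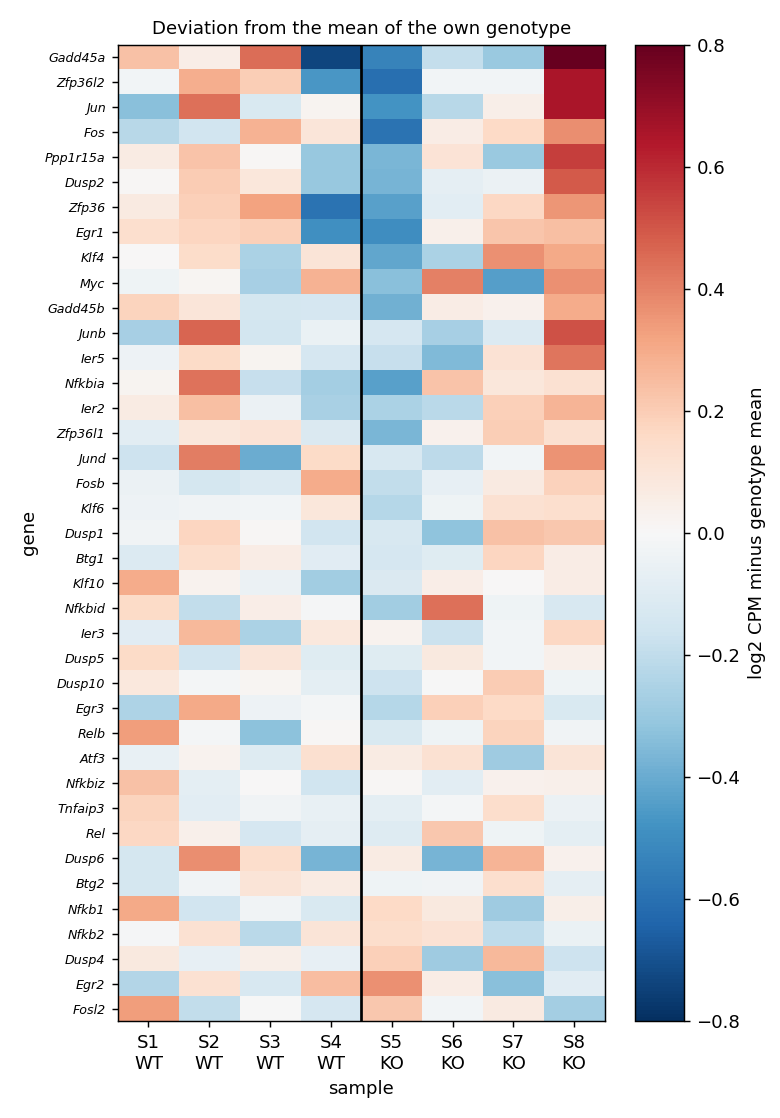
Log2 CPM of each member minus the mean of the 4 samples of its own genotype, by sample (x axis), with genes ordered by how strongly they separate S8 from S5. Red is above and blue below the genotype mean, and S5 is blue and S8 red for most genes in the upper part, whereas *Egr2*, *Fosl2* and *Dusp4* at the bottom are highest in S5 or S7.

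Other genes of the same pathways were taken from 4 lists, with 102 of 105 listed names tested. Of these 102, 3 were called higher, which is 2.94%, close to the 2.91% of all genes tested. A further 4 were called lower, where 1.99% of all genes were. At an adjusted p under 0.05, 10 were higher and 12 lower (9.8% and 11.8%, against 6.31% and 4.98% of all genes). Of 11 other AP-1 partners and competitors, edgeR called 0 (DESeq2 1, limma-voom 0), and 5 had an unadjusted p under 0.05. Of 21 other NF-kB signaling genes, *Bcl3*, an atypical IkB protein that acts with p50 and p52, was the 1 called. *Bcl3* was at 22.9, 25.7, 25.7 and 22.8 CPM in WT and 36.5, 49.6, 42.8 and 39.9 CPM in KO, without overlap (log2 fold change 0.80, SE 0.15, edgeR adjusted p = 0.0017).

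Of 31 MAP kinase and SRF pathway genes upstream of the response, *Spry2*, a feedback inhibitor of receptor to ERK signaling, was the 1 called by edgeR (DESeq2 3, limma-voom 2). It fell from 117, 74.0, 86.6 and 88.7 CPM in WT to 40.7, 34.3, 23.1 and 25.04 CPM in KO (log2 fold change -1.57, SE 0.18, edgeR adjusted p = 2.09e-05), without overlap. Its paralog *Spry1* had the opposite sign and was not called (0.79, edgeR adjusted p = 0.0127). Of 40 other activation-induced early genes, 2 were called higher and 3 lower, where 2.91% and 1.99% of all genes tested were. *Irf4*, a factor induced in proportion to T cell receptor signal strength, rose from 194, 162, 178 and 224 CPM to 370.5, 384, 450.2 and 352 CPM (log2 fold change 1.04, edgeR adjusted p = 1.21e-05).

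*Sgk1*, a kinase downstream of PI3K, rose by 0.65 on the log2 scale. *Cd83*, an activation antigen also found on dendritic cells (-1.34), *Rhob*, a small GTPase (-1.25), and *Plk2*, a stress-induced kinase (-0.84), were called lower, and 1 *Plk2* value in KO lay inside the WT range. Differences of both signs thus occurred beside each other in the wider pathway lists as well, whose median log2 fold change was -0.015, close to that of all genes tested.

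**Figure D5:**
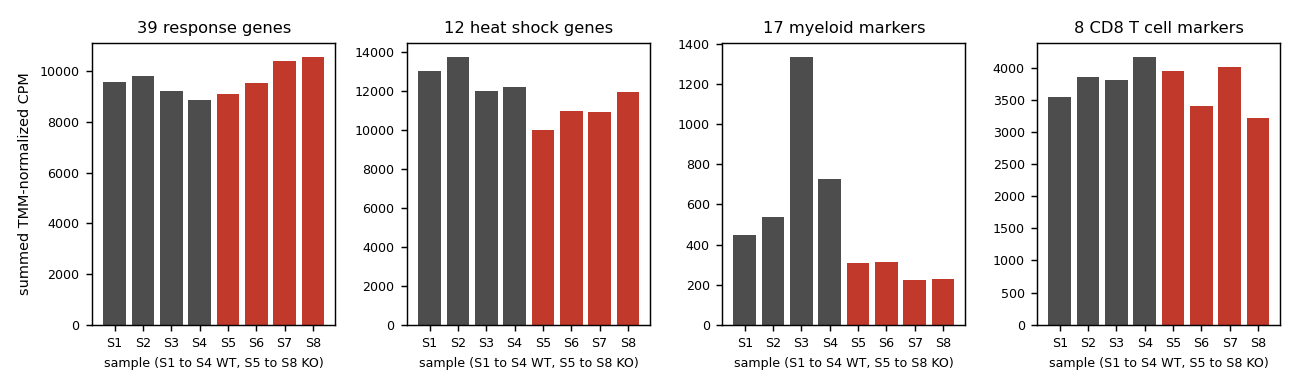
Summed TMM-normalized CPM of 4 gene lists in each sample, WT in grey and KO in red. The sum of the 39 response genes, 8854 to 9815 CPM in WT and 9114 to 10580 CPM in KO, overlaps between the genotypes, the sum of 12 heat shock genes and of 17 myeloid markers does not, and the CD8 T cell markers overlap.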

How the data were processed

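Counts of 39 genes in 4 WT and 4 KO samples of sorted TILs were analysed. The authors used STAR (GRCm38) and featureCounts on GENCODE genes, and deposited the raw counts of 55335 genes without normalization. The authors tested them with DESeq2 after a GC correction that was not used here. Whether counting used the strand is not given in the sources used here. Columns took their genotype from the sample names of the study's principal component plot, and could not be matched to the replicate numbers of the labels. The members, the other gene lists and the markers were chosen with earlier results of these data known.

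Counts were filtered with filterByExpr, scaled with TMM factors (0.94 to 1.05) and tested with glmQLFit and glmQLFTest in edgeR 4.0.16 (R 4.3.3), without covariates, over 15378 genes. Calls required more than a 1.5-fold change and an adjusted p (Benjamini-Hochberg) under 0.01. An SE is the size of the log2 fold change divided by the root of F. For single members, log2 CPM (prior count 2) was also compared by an exact permutation test, two-sided, whose 70 arrangements of the samples allow no p below 0.0286. That was the p of each of the 13 members whose groups did not overlap, and the lack of overlap fixes it in advance. RPKM used exon lengths of GENCODE M21 on GRCm38, which matched 55154 gene IDs, and the authors used a later release. The depth gives 3 counts a value of 0.099 to 0.257 CPM, which covers counting error only. Replicates were compared pairwise, and no 2 libraries agreed within sampling noise. The fit was tested on simulated data.

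All members are named. Values in every sample are given for members called or with an adjusted p under 0.05, without overlap, or among the 5 highest by RPKM, and for *Fos*, *Jun*, *Egr1*, *Nfkb2* and *Nfkbia*, added after their values were seen. Of the pathway lists, the called genes are named, and of promoters those of called members with a motif. *Dnajb1*, *Hspb1* and *Spry1* were named after their values were seen. Alternatives were other scalings, filters and tests (DESeq2 1.42.0, limma-voom 3.58.1, edgeR's likelihood ratio test), an adjusted p of 0.05 alone, GC content offsets (mgcv 1.9.3) and leaving out each sample.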

Additional observations from a re-analysis of the deposited data

Results flagged for a closer look

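In 3 of 78 groups of 4 samples (39 members in 2 genotypes), 1 sample lay apart from the other samples of its group by more than Dixon's 95% limit for the gap over the range, where chance at 1 in 20 gives 3.9. *Egr1* in WT was low in S4, with 6.54 on the log2 CPM scale, while S1 to S3 had 7.16 to 7.22 (gap over range 0.911). *Klf6* in WT was high in S4, at 9.39 against 9.26 to 9.28 (0.853), a small distance beside a tight group. *Atf3* in KO was low in S7, at 5.66 against 6.01 to 6.06 (0.862).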

How the results depend on the processing

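The 6 members called higher became 10 and the 1 called lower became 3 at an adjusted p under 0.05 with no fold threshold. Leaving out each sample gave 3 (without S7) to 8 (without S5) called higher and 1 to 4 (without S8) called lower. The 7 pathway genes called became 11 with DESeq2, 11 with the likelihood ratio test and 22 at an adjusted p under 0.05. The 13 members without overlap were 11 to 14 under other scalings, 12 with GC offsets and 13 to 18 without 1 sample. Groups with fewer samples separate more easily, so the last range cannot show how stable the count is. Shares of all genes without overlap were not computed under these settings. Log2 fold changes near 0 reversed sign for *Jund* (-0.0017 with upper quartile scaling, -0.0035 with library size alone), *Atf3* (-0.0077 and -0.0098), *Dusp6* (-0.020 and -0.017), *Ier5* (0.010 with GC offsets) and *Btg1* (0.0029 with DESeq2 size factors, 0.0028 with DESeq2). Leaving out each sample gave ranges that crossed 0 for *Fosl2* (-0.019 to 0.18), *Jund* (-0.11 to 0.17), *Atf3* (-0.023 to 0.10), *Ier5* (-0.19 to 0.078), *Dusp2* (-0.27 to 0.034), *Dusp6* (-0.11 to 0.14), *Zfp36l2* (-0.41 to 0.022), *Btg1* (-0.060 to 0.047) and *Btg2* (-0.019 to 0.061). The cause was not tested. *Klf4*, *Egr2*, *Dusp10* and *Myc* kept their calls under the 17 other tests, scalings, filters and left-out samples. Another scaling or GC offsets moved the median of all genes by at most 0.031 on the log2 scale. No paired analysis was possible because the columns carry no replicate numbers of the labels. With 4 samples a group, members below the thresholds may still differ.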
